A study of Mus musculus with 6 samples.

Results

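The expression of 40 genes of the cell cycle and proliferation was examined in the left ventricular myocardium of mice with heart failure with preserved ejection fraction (HFpEF) and of their controls. They were taken from the deposited expression table by their Ensembl identifiers, matched to symbols in GENCODE release M21, and are 40 of the 54532 genes listed. By role, 11 belong to S phase, 14 to mitosis, 12 are cyclins and cyclin-dependent kinases, and 3 are kinase inhibitors. All mice were male C57BL/6, aged 6 to 8 weeks at the start. The HFpEF mice received a high-fat diet, with 60% of kcal from fat, and L-NAME, which blocks nitric oxide synthase, at 0.5 g/L in their water for 12 weeks. The Chow mice received standard chow and regular water. Each group had 3 libraries, from 3 distinct mice, and the diet and L-NAME were given together, so their parts cannot be told apart.

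A dividing cell commits to a new round in G1, when D-type cyclins activate Cdk4 and Cdk6 and E2F transcription factors are released. DNA is then licensed and unwound by the MCM helicase and copied in S phase, and cyclin B with Cdk1 drives mitosis, in which Aurora and Polo kinases, kinesins and the spindle checkpoint separate the chromosomes. Most adult cardiomyocytes have left the cycle, whereas fibroblasts, endothelial cells and leukocytes of the heart can still divide, and the inhibitors p21 (Cdkn1a), p57 (Cdkn1c) and p18 (Cdkn2c) restrain the kinases.

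Values are FPKM, in which the fragments of a gene are divided by its exon length and by a library's depth. Reads recovered from the FPKM steps totalled 13076772 to 15574914 in Chow and 13461735 to 16027084 in HFpEF. The depths that those steps imply differed from these totals, so the values carry a further scaling between libraries. HFpEF replicate 3 stood apart from the other libraries. It was at least 2-fold above each of the other 5 libraries for 504 of 14225 tested genes (3.54%), against 19 to 67 genes for any other library, and 7.17% of its reads came from the mitochondrial genome, against 20.1% or more in each of the others. For many of the members whose value rests on it, the value without it is given beside it.

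In HFpEF replicate 3, which is 1 mouse, 13 of the 14 mitosis members stood at 2.11 to 5.68 times their Chow mean and Cenpf at 0.604 times. The median log2 ratio of the 14 to their Chow mean was 1.80 in that library, beside -0.022 over all tested genes. The share of all tested genes at such ratios was not counted. In the same library the S phase members stood at 1.13 to 4.83 times, the highest being E2f1, and the D-type cyclins at 0.949 to 0.995 times. The difference between the roles was not tested. No member passed the test across all genes. To be tested, a gene needed 3 or more libraries with an FPKM of 0.5 or above, which 30 of the 40 members had. None had an adjusted p under 0.05 in limma, nor did any meet the study's definition of a DEG (the same adjusted p with a log2 fold change of 2 or more in size). Of all 14225 tested genes, 14 (0.0984%) and 8 (0.0562%) did. The study called its DEGs with DESeq2 and reported more of them, so these limma counts are not its own. At an unadjusted p under 0.05, 4 members (Mcm4, Cdc20, Cdkn1a and Cdkn2c, 13.3% of those tested) were higher in HFpEF and 2 (Cenpf and Cdkn1c, 6.67%) were lower, where 10.2% and 13.1% of all tested genes were. These shares lie near or below the background. The 3 HFpEF libraries were all above the 3 Chow libraries for 3 of the 30 tested members (background 15.6%) and all below them for 2 (background 19.7%).

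**Figure D1:**
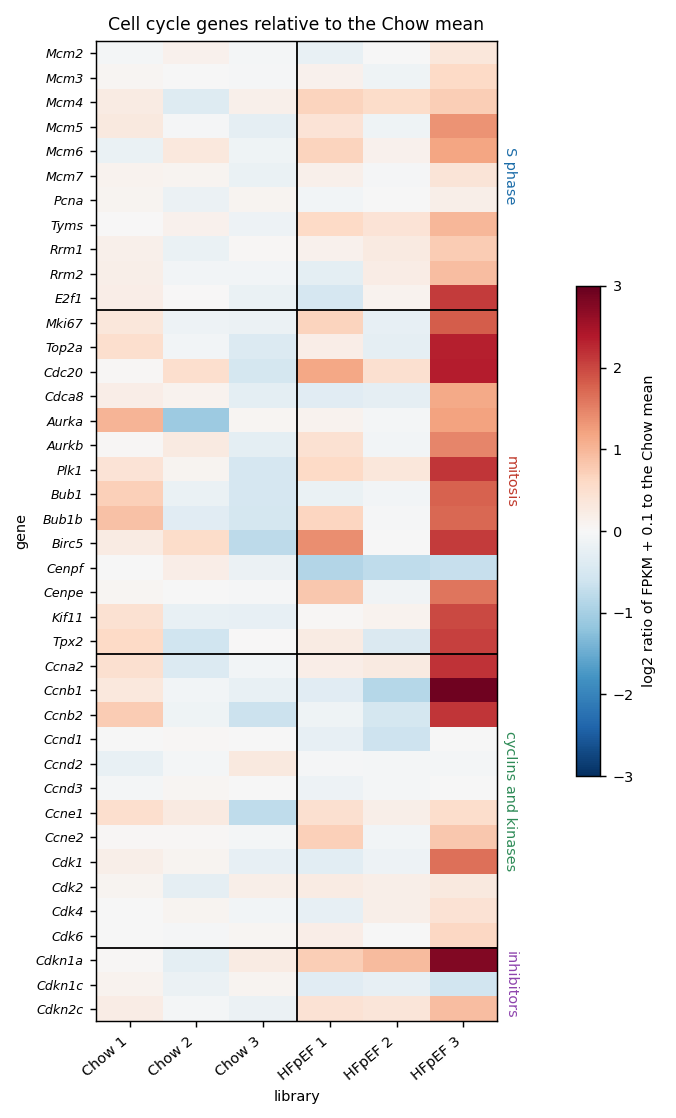
Each cell gives, on a log2 scale, FPKM + 0.1 relative to the mean of the Chow libraries for 1 of the 40 genes (rows, grouped by role) in 1 library (columns). Red is above and blue below the Chow mean. The column of HFpEF replicate 3 is the reddest, with the deepest colour in mitosis genes, Ccna2, Ccnb1, Ccnb2, Cdk1, E2f1 and Cdkn1a, while Cenpf and Cdkn1c are blue in every HFpEF library.

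The promoters of S phase and mitosis genes differ in their letters, and 6 are shown, from the S phase and mitosis members of lowest unadjusted p whose promoter holds a searched motif. RefSeq promoters (GRCm38.p6, 250 bases before to 50 after the start site) were matched for 32 of the 40 members. Mcm4, of lower unadjusted p than Cdc20, was not matched and so could not be shown. The 11 S phase promoters are of 10 genes, with Mcm7 counted more than once. The letters searched on both strands were TTTCGCGC, TTTGGCGC and TTTCCCGC for E2F, TTTGAA and TTCGAA for the cell cycle homology region (CHR), and CCAAT. The stretches below are upstream of the RefSeq start site and are printed 5′ to 3′ on the gene's strand, with matches in capitals.
Cenpf, chr1:189688138-189688233, minus strand: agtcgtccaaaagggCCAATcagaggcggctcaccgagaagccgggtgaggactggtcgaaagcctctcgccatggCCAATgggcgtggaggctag
Cdc20, chr4:118437344-118437411, minus strand: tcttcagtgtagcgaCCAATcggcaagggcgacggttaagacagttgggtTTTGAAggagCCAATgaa
Mcm6, chr1:128359706-128359830, minus strand: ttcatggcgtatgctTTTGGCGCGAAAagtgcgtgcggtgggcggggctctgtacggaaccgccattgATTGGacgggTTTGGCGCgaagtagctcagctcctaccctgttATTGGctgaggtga
Plk1, chr7:122159406-122159434, plus strand: tttaaatccccgcggCCAATcagcaacgc
Rrm1, chr7:102441589-102441669, plus strand: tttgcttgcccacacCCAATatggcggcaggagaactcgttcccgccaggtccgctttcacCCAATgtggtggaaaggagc
Mki67, chr7:135716457-135716582, minus strand: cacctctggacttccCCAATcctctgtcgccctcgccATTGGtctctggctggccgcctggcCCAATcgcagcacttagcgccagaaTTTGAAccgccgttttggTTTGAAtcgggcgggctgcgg

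In Mcm6, 3 E2F matches fall in the stretch, the first 2 overlapping, whereas Cdc20 and Mki67 hold CHR letters as well as CCAAT. Matches after the start site are not printed. In Aurka, Bub1, Cdca8, Cenpf and Plk1 the CHR letters lie only after it. The 3′ end of the Cdc20 stretch lies inside the GENCODE model of that gene. CHR letters were in 10 of 12 matched mitosis promoters (83.3%) and 2 of 11 S phase promoters (18.2%), beside 19.2% of all 32851 promoters. E2F letters were in 4 of 11 S phase promoters (36.4%) and none of the 12 mitosis promoters, beside 1.84% of all. CCAAT was in 81.8% and 91.7%, beside 37.4%. Of the inhibitors, Cdkn1a and Cdkn2c had promoters in the table, and these held neither E2F nor CHR letters. A match describes letters in the window, and binding was not measured.

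Among the replication genes Pcna was the most abundant. Pcna, the sliding clamp of DNA polymerase, had FPKM of 13.7, 11.4 and 13.7 in Chow and 12.2, 12.8 and 14.6 in HFpEF. The groups overlapped, and the fitted log2 fold change was 0.031 (95% interval -0.26 to 0.32, limma adjusted p = 0.896). Mcm4, a subunit of the helicase, had FPKM of 2.92, 1.83 and 2.72 in Chow and 3.90, 3.60 and 4.11 in HFpEF. The groups did not overlap, and HFpEF was higher by a log2 fold change of 0.64 ± 0.19 (SE, 3 mice per group), which did not pass across all genes (limma adjusted p = 0.143). Its HFpEF values lay close together, with replicate 3 only 1.05-fold above the next library.

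Mcm6, from the same helicase ring, had FPKM of 2.12, 3.03 and 2.23 in Chow and 3.92, 2.68 and 5.65 in HFpEF. HFpEF replicate 2 lay inside the Chow range, and the log2 fold change was 0.66 ± 0.29 (SE, limma adjusted p = 0.226), or 0.40 without HFpEF replicate 3. Over the 6 Mcm genes together, fitted log2 fold changes ran from 0.035 (Mcm2) to 0.66 (Mcm6), and the differences between subunits were not tested. Tyms, thymidylate synthase, fell under the FPKM minimum, at 0.300, 0.336 and 0.258 in Chow and 0.498, 0.427 and 0.697 in HFpEF. Its groups did not overlap, and the exact two-sided permutation test gave p = 0.1, the smallest that 3 mice against 3 allow. Rrm1 and Rrm2, the subunits of ribonucleotide reductase, had log2 fold changes of 0.38 and 0.28 with overlapping groups, or 0.20 and -0.037 without HFpEF replicate 3. E2f1, the transcription factor, had 0.690, 0.594 and 0.498 in Chow and 0.389, 0.636 and 2.87 in HFpEF. Its HFpEF replicate 3 was 4.16-fold above the next highest library, while HFpEF replicate 1 was the lowest of the 6. Its log2 fold change was 0.57 over all libraries (limma adjusted p = 0.620) and -0.20 without replicate 3.

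Mitosis genes had low levels, at most 1.19 FPKM in any Chow library for each member but Cenpf. Mki67, which encodes the proliferation antigen Ki-67, had FPKM of 0.684, 0.457 and 0.452 in Chow and 0.890, 0.422 and 2.11 in HFpEF. The read numbers behind them were 98, 54 and 55 for Chow and 124, 72 and 410 for HFpEF. HFpEF replicate 2 was the lowest of the 6 libraries and replicate 3 the highest, and the log2 fold change of 0.75 ± 0.54 (SE) did not pass (limma adjusted p = 0.419) and was 0.21 without replicate 3. Top2a, the DNA topoisomerase of dividing cells, had 0.865, 0.548 and 0.413 in Chow and 0.689, 0.465 and 3.37 in HFpEF, with replicate 3 at 3.90 times the next highest library. Its log2 fold change was 0.76 over all libraries (limma adjusted p = 0.525) and -0.036 without HFpEF replicate 3.

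Cdc20, which activates the anaphase-promoting complex, had FPKM of 0.827, 1.19 and 0.531 in Chow and 1.93, 1.17 and 4.54 in HFpEF. HFpEF replicate 2 fell just inside the Chow range, and the log2 fold change was 1.33 ± 0.51 (SE, limma adjusted p = 0.192), or 0.82 without HFpEF replicate 3 (limma adjusted p = 0.238). The kinase Plk1 had 0.511, 0.388 and 0.226 in Chow and 0.591, 0.483 and 1.93 in HFpEF, again with replicate 2 inside the Chow range. Its log2 fold change was 1.02 over all libraries (limma adjusted p = 0.309) and 0.47 without replicate 3. The other mitosis members, Cenpf left out, had exact two-sided permutation p between 0.3 and 0.9 and overlapping groups.

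Cenpf, a large kinetochore and nuclear matrix protein, lay in the other direction. Its FPKM was 2.68, 3.10 and 2.36 in Chow and 1.43, 1.56 and 1.64 in HFpEF, and it was the only mitosis member below the Chow mean in HFpEF replicate 3. All HFpEF libraries were below all Chow libraries, by a log2 fold change of -0.77 ± 0.16 (SE, 3 mice per group), with the lowest adjusted p of any member (limma adjusted p = 0.09996 over all libraries). Without HFpEF replicate 3 it was -0.81 with an adjusted p of 0.0382, and in that fit 1169 genes (8.22% of those tested) had an adjusted p under 0.05. Cenpf lies on chr1:189640606-189688086, minus strand. With a union exon length of 15433 bases, it had the largest read numbers of the mitosis genes in Chow.

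**Figure D2:**
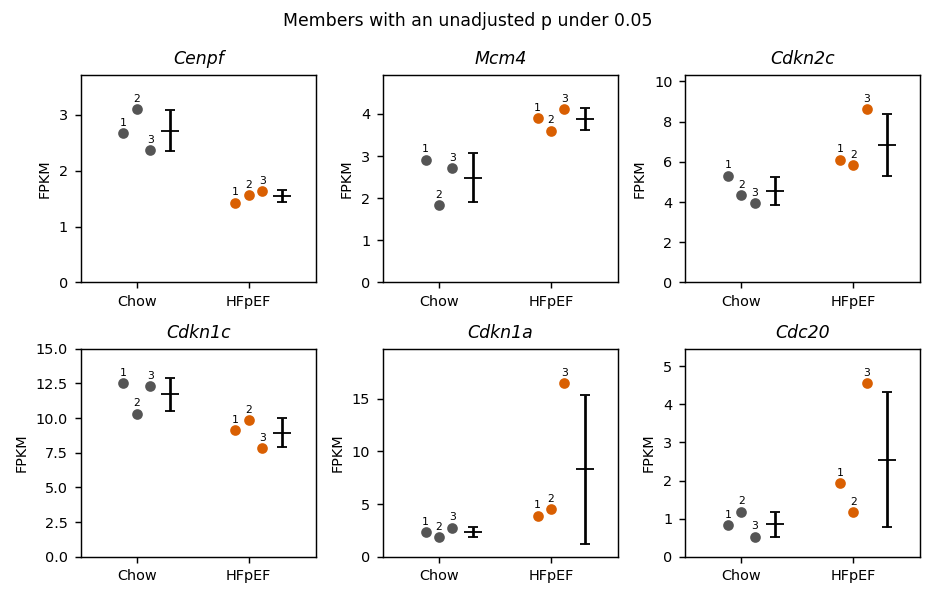
FPKM of the 6 members with an unadjusted p under 0.05, by group (Chow grey, HFpEF orange), with 1 numbered point per library and the mean ± SD (n = 3) as a black bar. Cenpf, Mcm4, Cdkn2c, Cdkn1c and Cdkn1a have groups that do not overlap, and the spread of Cdkn1a and Cdc20 in HFpEF comes with replicate 3.

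None of the 9 tested cyclins and kinases had an unadjusted p under 0.05. The D-type cyclins, which act in G1, were among the most abundant members. Ccnd1 had FPKM of 12.6, 13.1 and 12.7 in Chow and 10.8, 8.32 and 12.7 in HFpEF, a log2 fold change of -0.29 (95% interval -0.67 to 0.096, limma adjusted p = 0.315). Without HFpEF replicate 3 it was -0.43 (limma adjusted p = 0.0893). Ccnd2 had 10.8, 12.0 and 15.4 in Chow and 12.2, 12.1 and 12.1 in HFpEF, with a log2 fold change of -0.053 (95% interval -0.40 to 0.29).

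For Ccnd3 the log2 fold change was -0.079 (95% interval -0.31 to 0.15). Their kinase Cdk4 had FPKM of 12.0, 12.8 and 11.3 in Chow and 10.1, 13.6 and 16.4 in HFpEF, with the lowest and highest values of the 6 both in HFpEF (log2 fold change 0.12, limma adjusted p = 0.712, and -0.041 without replicate 3). Of the exon bases of Cdk4, 19.7% are shared with Tspan31 on the opposite strand, at 12.6 to 17.1 FPKM over the libraries. Cdk2, Cdk6, Ccne1 and Ccne2, of G1 and entry into S phase, had log2 fold changes of 0.23 to 0.48 and overlapping groups. Without HFpEF replicate 3 these were 0.21 (Cdk2), 0.0965 (Cdk6), 0.33 (Ccne1) and 0.32 (Ccne2). Ccne2 shares 17.4% of its exon bases with Ints8 and Ccnd1 23.4% with LTO1, both expressed from the opposite strand. Where FPKM was instead scaled to the summed recovered reads of each library, which moved the median of all tested genes to 0.28, the D-type cyclins came to between 0.0067 and 0.24, so their sign depends on the scaling. Relative to that median they were at -0.27 (Ccnd1), -0.034 (Ccnd2) and -0.063 (Ccnd3).

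The cyclins and kinase of G2 and mitosis were highest in HFpEF replicate 3. Ccnb1, cyclin B1, had FPKM of 0.217, 0.142 and 0.118 in Chow and 0.103, 0.0420 and 1.82 in HFpEF, on 13, 7 and 6 reads in Chow and 6, 3 and 148 in HFpEF. HFpEF replicates 1 and 2 were the lowest of the 6 libraries and replicate 3 was 8.39-fold above the next highest. Its partner Cdk1 had 0.370, 0.345 and 0.251 in Chow and 0.234, 0.275 and 1.22 in HFpEF, on 26, 20 and 15 reads against 16, 23 and 116. The exact two-sided permutation p was 1.0 for Ccnb1 and 0.9 for Cdk1, with both extremes in the HFpEF group, and their log2 fold changes of 0.58 and 0.39 were -0.59 and -0.24 without replicate 3. Ccnb2 had 1.74, 0.891 and 0.594 in Chow and 0.896, 0.655 and 4.70 in HFpEF, with a log2 fold change of 0.50, or -0.32 without replicate 3. Ccna2 was 3.60-fold higher in HFpEF replicate 3 than in the next library, with a log2 fold change of 0.87, or 0.23 without replicate 3. It shares 12.5% of its exon bases with Exosc9 on the opposite strand, which had 2.59 to 3.06 FPKM.

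The groups did not overlap for any of the 3 inhibitors, with HFpEF higher for 2 and lower for 1, where 15.6% and 19.7% of all tested genes had such groups. None of the 3 passed the adjusted p. Cdkn1a, which encodes p21 (chr17:29090976-29100727, plus strand), had FPKM of 2.37, 1.87 and 2.77 in Chow and 3.90, 4.55 and 16.5 in HFpEF. Again the groups did not overlap, and replicate 3 was 3.62-fold above the next library. The log2 fold change was 1.49 ± 0.53 (SE, limma adjusted p = 0.177). Without HFpEF replicate 3 it was 0.84, with an adjusted p of 0.0507 in limma. Since the groups do not overlap, leaving out a library could not turn its sign.

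Cdkn2c, p18, an inhibitor of Cdk4 and Cdk6, had 5.31, 4.35 and 3.94 in Chow and 6.10, 5.82 and 8.62 in HFpEF. All HFpEF libraries were higher, by a log2 fold change of 0.57 ± 0.19 (SE, limma adjusted p = 0.161), or 0.40 without replicate 3. Cdkn1c, p57, had 12.5, 10.3 and 12.3 in Chow and 9.14, 9.87 and 7.82 in HFpEF. All HFpEF libraries were lower, by a log2 fold change of -0.39 ± 0.13 (SE, limma adjusted p = 0.165), or -0.29 without replicate 3, which was the lowest. Scaled to the summed recovered reads this was -0.095, and -0.37 relative to the median of all genes. Of the exon bases of Cdkn1c, 30.7% are shared with a gene on the opposite strand (Gm44732, listed at 0 in every library), and whether counting used strand is not given in the sources used here.

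**Figure D3:**
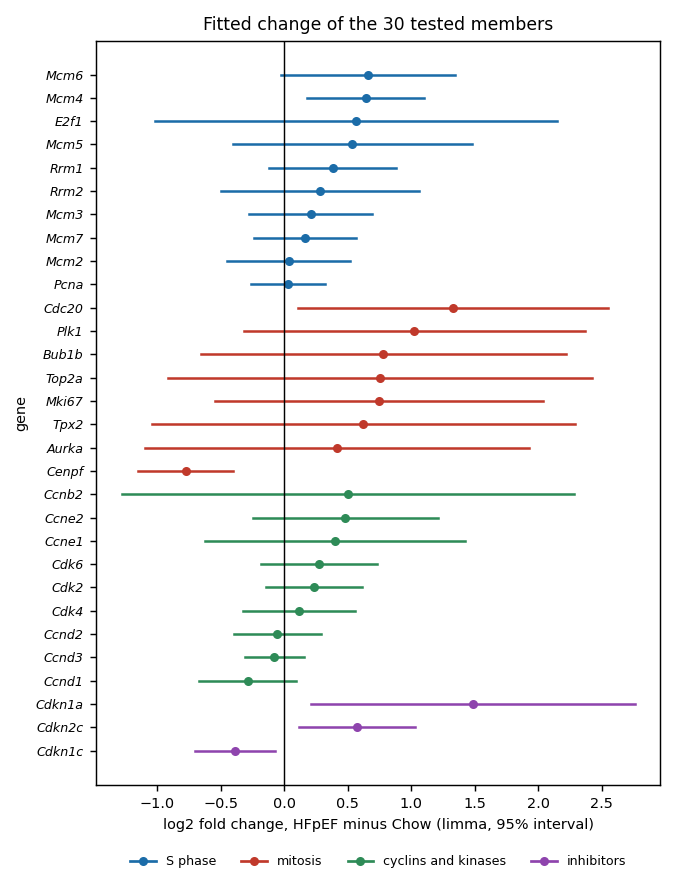
Fitted log2 fold change (HFpEF minus Chow, log2 of FPKM + 0.1) of the 30 tested members with its 95% interval from limma, coloured by role. The intervals of Mcm4, Cdc20, Cenpf, Cdkn1a, Cdkn2c and Cdkn1c exclude 0 before adjustment, and intervals of mitosis genes other than Cenpf are wide.

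Log2 fold changes were above 0 for 25 of the 30 tested members, where 48.8% of all tested genes were above 0, and their median was 0.41 beside -0.012 over all tested genes. With the 10 members under the minimum included, they were above 0 for 35 of 40, with a median of 0.50. By role the medians over all members were 0.38 for S phase, 0.73 for mitosis, 0.33 for cyclins and kinases and 0.57 for inhibitors. Without HFpEF replicate 3 they were 0.051, 0.13, -0.045 and 0.40. In that fit Mcm2, Pcna, Rrm2, E2f1, Top2a, Tpx2, Ccnb2 and Cdk4, all tested, turned below 0. So did Cdca8, Bub1, Ccnb1 and Cdk1, under the minimum. The counts above 0 thus rest in part on that library.

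HFpEF replicate 3 was the highest of the 6 libraries for 35 of the 40 members, among them all 10 under the FPKM minimum. Over all tested genes, which leave out such low genes, it was the highest for 30.5%. It was at least 2-fold above each other library for 16 of 40, and for 8 of the 30 tested (26.7%, background 3.54%). Of these 8, Mki67, Plk1 and Tpx2 had an FPKM of 0.5 or above in only 3 libraries, replicate 3 among them. They were thus tested only through the library in which they stood high. The same filter set which genes entered the background and the longer lists below. The 2-fold measure was chosen after the values were seen. By role it held for 10 of 14 mitosis genes, 4 of 12 cyclins and kinases (Ccna2, Ccnb1, Ccnb2 and Cdk1), 1 of 11 S phase genes (E2f1) and 1 of 3 inhibitors (Cdkn1a). In replicate 3 the 14 mitosis members were at 0.604 to 5.68 times their Chow mean (median 4.49) and the 11 S phase members at 1.13 to 4.83 times (median 1.72), so the roles overlapped. In the mean of HFpEF replicates 1 and 2 the mitosis members were at 0.550 to 2.06 times the Chow mean (median 1.10). Replicate 3 is 1 mouse, so this arrangement has no replicate check.

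**Figure D4:**
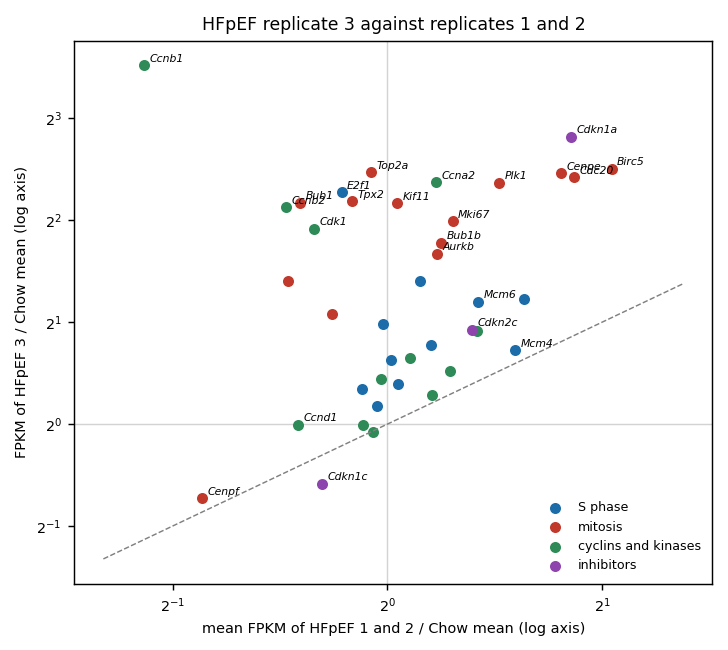
FPKM in HFpEF replicate 3 against the mean of HFpEF replicates 1 and 2, each divided by the Chow mean, on log axes, with 1 point per member coloured by role. The dashed line marks equality. Most mitosis genes lie high above it and spread to both sides of 1 on the horizontal axis, while Cenpf, Mcm4, Ccnd2 and Ccnd3 lie close to it.

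The 10 members under the FPKM minimum were Tyms, Cdca8, Aurkb, Bub1, Birc5, Cenpe, Kif11, Ccna2, Ccnb1 and Cdk1. They had 2 to 70 reads in a Chow library, 3 to 62 in HFpEF replicates 1 and 2, and 63 to 299 in HFpEF replicate 3. Apart from Tyms, their exact two-sided permutation p ran from 0.3 to 1.0. How small a difference among the Chow libraries and HFpEF replicates 1 and 2 could be detected at these depths was not tested.

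The rest of the cycle was read from longer lists. Of 44 other S phase genes, 28 were tested, with 1 higher and 1 lower at an unadjusted p under 0.05 (3.57% each, below the background of 10.2% and 13.1%). Gmnn, geminin, the inhibitor of replication licensing, had 22.3, 19.95 and 21.1 FPKM in Chow and 15.3, 14.6 and 13.6 in HFpEF (log2 fold change -0.54 ± 0.098, SE, limma adjusted p = 0.0963). Of 55 other mitosis genes, 17 were tested, with 3 higher (Cdc25b, Smc4 and Smc2) and none lower at that p (17.6% higher, background 10.2%). HFpEF replicate 3 was the highest library for 52 of the 55, tested or not, and for 30.5% of all tested genes. It was at least 2-fold above all others for 31, of which 4 were among the 17 tested (23.5%, background 3.54%). Of 36 other regulators, 28 were tested and 1, E2f5, was higher (3.57%) and none lower.

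Cdkn1a is also a classical target of p53, and of 25 other p53 targets 23 were tested. Phlda3 and Trp53inp1 were higher at an unadjusted p under 0.05, with log2 fold changes of 1.17 and 0.74, and Gadd45a and Sesn1 were lower, at -0.66 and -0.45, which is 8.70% of those tested in each direction and below the background. In HFpEF replicate 3 the median log2 ratio of the 25 to their Chow mean was 0.78, beside -0.022 over all tested genes. In replicates 1 and 2 it was -0.070 and 0.016. Replicate 3 was the highest library for 15 of the 25, tested or not, and for 30.5% of all tested genes. It was at least 2-fold above all others for 2 of the 23 tested (8.70%, background 3.54%). A tie of these values to Cdkn1a was not tested. In limma, the adjusted p was above 0.05 for every tested gene of these 4 lists.

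Of 12 marker lists for the heart's cell types, those of fibroblasts, macrophages, T and NK cells and cardiomyocytes had their most extreme sums in HFpEF replicate 3. Summed over 6 fibroblast markers, FPKM was 180 to 212 in Chow and 333, 407 and 4637 in HFpEF, most of the last from Col1a1 and Col3a1. Summed over 6 macrophage markers it was 179 to 228 in Chow and 227, 296 and 767 in HFpEF. All 6 genes of both lists were highest in HFpEF replicate 3, as were 30.5% of all tested genes, and none was at 0 in any library. Summed over 6 cardiomyocyte markers it was 12330 to 13570 in Chow and 8902, 9652 and 6014 in HFpEF. All 6 genes were lower in every HFpEF library than in any Chow library, as were 19.7% of all tested genes. In limma 3 of the 6 had an unadjusted p under 0.05, and the lowest adjusted p was 0.0988. In bulk tissue, fewer cells of a type and less RNA per cell cannot be told apart.

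Endothelial markers summed to 206 to 225 in Chow and 163 to 169 in HFpEF. Markers of T and NK cells summed to 0.898 to 1.68 in Chow and 0.572, 1.33 and 2.88 in HFpEF, with Cd3d listed at 0 in Chow replicates 1 and 3. B cell markers were highest in HFpEF replicate 2, at 90.1 against 6.12 to 14.9 elsewhere. Adipocyte markers were at 0 to 0.0183 in Chow and 28.8 to 60.1 in HFpEF, lowest of these in replicate 3. Sums for smooth muscle and pericytes, mesothelium and epicardium, and cartilage and valve were highest in HFpEF replicate 1 or 2, and those for neutrophils and red blood cell precursors in Chow replicate 2. The part of these cell types in the values of the cell cycle genes was not tested.

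**Figure D5:**
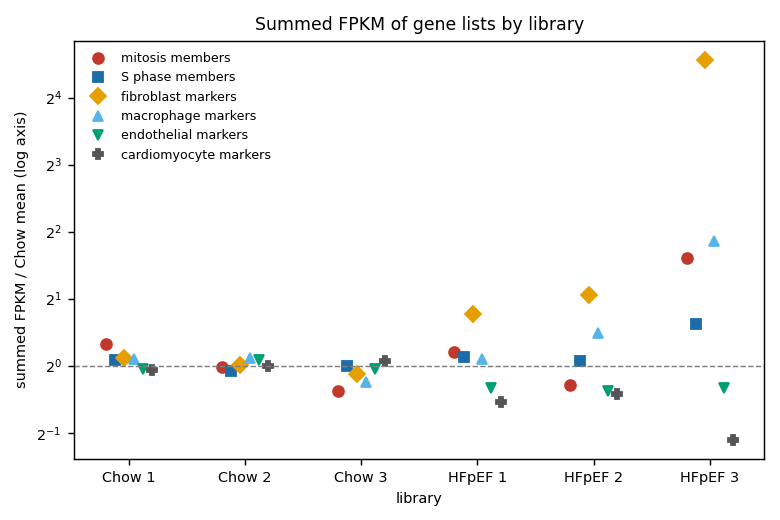
Summed FPKM of the mitosis and S phase members and of 4 marker lists in each library, divided by the Chow mean of that list, on a log axis. In HFpEF replicate 3 the mitosis sum (24.6 FPKM, against 6.17 to 10.1 elsewhere) is high together with the fibroblast and macrophage sums, and the cardiomyocyte sum is at its lowest.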

How the data were processed

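Left ventricular myocardium of 3 Chow and 3 HFpEF mice was sequenced, with 1 library per mouse, and groups were taken from the sample labels. The authors used HISAT2 for alignment and featureCounts for gene counts, and deposited FPKM. The formula and strand setting are not given in the sources used here. Multiplied by GENCODE M21 (GRCm38) union exon lengths, 96.1% to 96.2% of the deposited FPKM above 0 were whole reads at a relative tolerance of 1e-06. The depths these steps imply (11734336 to 19316914) differ from the summed reads, so the values carry a further scaling between libraries.

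After median-of-ratios rescaling (factors 0.999 to 1.00), log2(FPKM + 0.1) was fitted with limma 3.58.1 in R 4.3.3 (lmFit, eBayes with trend and robust), with Benjamini-Hochberg adjustment over the 14225 genes with 3 or more libraries at an FPKM of 0.5 or above. The pseudocount pulls the ratio of 2 low values toward 1, so fold changes of low genes depend on it. Members under the minimum were given an exact permutation test, two-sided. The fit was tested on simulated data in which no library stood apart. That run does not show how the fit behaves with a library like HFpEF replicate 3. Alternatives covered scaling, pseudocount, filter, variance model, voom on recovered reads, the replicate number as a block, and each library left out. The members, gene lists, named genes (those with an unadjusted p under 0.05, the 3 most abundant of each role, and Mki67, Top2a, Cdk1, Ccnb1 and Cdkn1a; others were named after their values were seen) and motifs were chosen with earlier results of these data known. The checks of HFpEF replicate 3, exon overlap and scaling to the summed recovered reads were chosen after the values were seen. Reads of Ccnb1, Ccnb2, Ccnd3, Pcna and Tyms may be shared with annotated pseudogenes.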

Additional observations from a re-analysis of the deposited data

How the results depend on the processing

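With quantile normalization Mcm2 (-0.16), Cdca8 (-0.051) and Ccnd2 (0.0011) turned sign. Further scalings chosen after seeing the data moved the median of all tested genes. Scaled to the summed recovered reads (median 0.28), 7 members were higher and 1 lower at an unadjusted p under 0.05, the S phase and inhibitor medians were 0.67 and 0.86, and Ccnd1 (0.0067), Ccnd2 (0.24) and Ccnd3 (0.21) turned sign. Scaled to those outside the mitochondrial genome (median 0.13), 1 member was lower, and Ccnd2 (0.097) and Ccnd3 (0.070) turned sign. In these scalings the split of all tested genes at that p was 25.0% higher and 4.15% lower, and 18.7% and 6.51%, against 10.2% and 13.1%. Neither gave a member an adjusted p under 0.05. With a pseudocount of 1 the medians of mitosis, S phase and cyclins and kinases were 0.34, 0.24 and 0.19, and with quantile normalization those of S phase and cyclins and kinases were 0.24 and 0.17. With voom on recovered reads 2 members were higher. Scaling to summed reads multiplies all genes of a library by the same factor, which by itself moves the median of all genes. Why the depths implied by the FPKM steps differ from those sums, and the cause of the other shifts, were not tested.

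The libraries share only a number between groups (correlations of same-numbered deviations -0.041, -0.073 and -0.057). With the replicate number as a block 3 members were higher and 1 lower, and no adjusted p was under 0.05.

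With each library left out in turn, 1 to 7 members were higher, 1 to 3 lower and 0 to 1 had an adjusted p under 0.05 (Cenpf, without HFpEF replicate 3). The S phase median ran from 0.051 to 0.57, that of mitosis from 0.13 to 1.17 and that of cyclins and kinases from -0.045 to 0.46. Log2 fold changes that turned sign ran from -0.13 to 0.93 (Aurka), -0.15 to 0.84 (Bub1), -0.59 to 1.29 (Ccnb1), -0.32 to 1.01 (Ccnb2), -0.17 to 0.086 (Ccnd2), -0.30 to 0.44 (Cdca8), -0.24 to 0.74 (Cdk1), -0.041 to 0.30 (Cdk4), -0.20 to 1.10 (E2f1), -0.11 to 0.16 (Mcm2), -0.062 to 0.087 (Pcna), -0.037 to 0.57 (Rrm2), -0.036 to 1.27 (Top2a) and -0.090 to 1.15 (Tpx2). The 6 members with an unadjusted p under 0.05 kept their direction in every alternative run. They were picked by p from these same values. All but Cdc20 have groups that do not overlap, so leaving out a library could not turn their sign. Under all alternatives that kept 6 libraries the lowest adjusted p of a member was 0.0749, with voom.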
